A study of Arabidopsis thaliana with 4 samples.

Results

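The 9 genes described here encode enzymes of starch synthesis and breakdown in Arabidopsis thaliana. The enzymes act in the chloroplast, except for 1 that processes exported maltose in the cytosol. The genes were taken by locus from the table of reads per gene: GBSS1, SS3, SS4 and APL3 on the synthesis side, and SEX1, BAM1, BAM3, ISA3 and DPE2 on the breakdown side. All 9 were present among the 26784 genes of the table, and all 9 passed the filter on low counts. RNA was sequenced from whole wild-type Col-0 seedlings at 6 days post germination (dpg, 2 libraries) and at 2 dpg (2 libraries). Seedlings of both ages had been stratified for 2 days at 4 °C in the dark and then grown on 12-h days at 22 °C, on 1/2-strength Murashige and Skoog plates holding 0.5% sucrose. Whether replicate libraries stem from independent sowings is not stated. A p-value here therefore reflects library-to-library spread, and that spread may be purely technical. The hour of collection is not given either. A whole seedling mixes root, hypocotyl, cotyledon and young leaf, and in such bulk RNA fewer cells of a type and less RNA per cell cannot be told apart.

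Starch is the glucose polymer that leaves lay down in chloroplasts by day and use up at night. ADP-glucose pyrophosphorylase makes the activated sugar ADP-glucose, starch synthases add its glucose to growing chains, branching enzymes introduce branches, and isoamylases trim misplaced ones. At night glucan, water dikinases phosphorylate the granule surface, beta-amylases release maltose, debranching enzymes remove branch points, and the maltose leaves the plastid and is processed in the cytosol. Many of these genes have transcripts with a strong daily rhythm. Non-green plastids such as the amyloplasts of the root cap also hold starch.

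Of the 9 genes, 3 rose and 3 fell at 6 dpg relative to 2 dpg, and 3 did not pass the test. BAM3, the main leaf beta-amylase of night-time starch breakdown, rose 9.95-fold, and GBSS1, the synthase that makes amylose inside the granule, rose 3.16-fold. SEX1, the glucan, water dikinase that starts breakdown, rose 1.64-fold. DPE2, the cytosolic enzyme that uses the exported maltose, fell by 0.94 on the log2 scale, the debranching enzyme gene ISA3 by 0.78 and the ADP-glucose pyrophosphorylase subunit gene APL3 by 0.69. The genes that rose and the genes that fell came from both the synthesis and the breakdown side. The test was edgeR's quasi-likelihood test over the whole table, with a Benjamini-Hochberg adjusted p under 0.05 taken as the threshold. Of all 16160 genes tested, 56.6% passed it, 28.3% higher and 28.4% lower, so a count of 6 in 9 is close to the background of this comparison. The median log2 fold change of the 9 genes was 0.21, beside 0.00 over all genes tested. Both libraries of one age lay outside the range of the other for 8 of the 9 genes, where 80.6% of all tested genes did so. The authors' deposited table has an adjusted p under 0.05 for 5 of the 9 and for 32.8% of all genes with a value. The gene that differs from the calls above is APL3, at 0.0716 in the authors' deposited table.

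**Figure D1:**
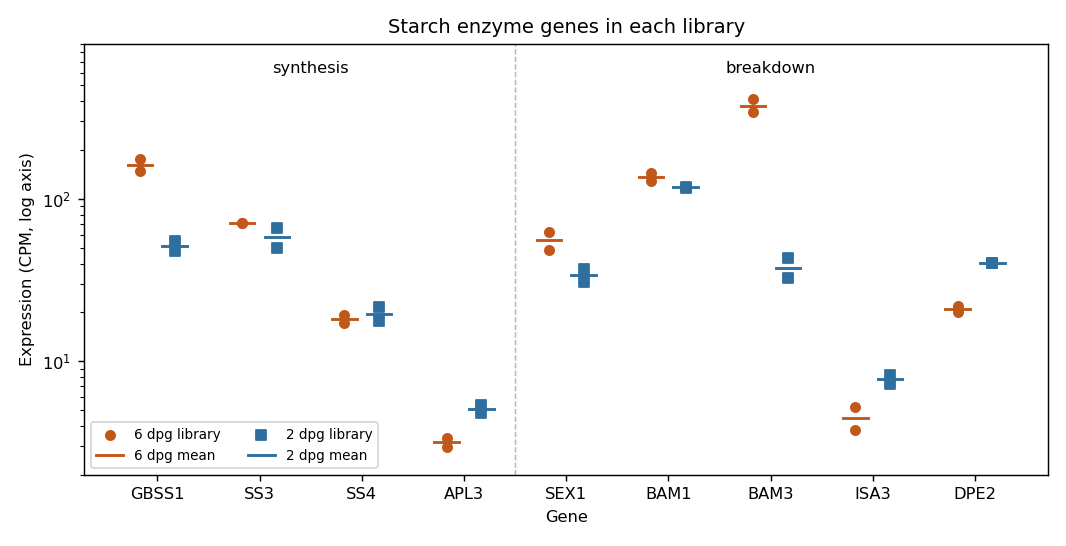
Expression of the 9 starch enzyme genes in CPM (log axis) in each library of 6 dpg (circles) and 2 dpg (squares), with bars for the mean of an age. BAM3 stands at 341 and 410 CPM at 6 dpg, against 32.6 and 43.0 CPM at 2 dpg, and SS4 is the gene whose ages overlap.

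The start regions of 4 genes are shown, those of the 3 genes that rose (BAM3, GBSS1 and SEX1) and of DPE2, the gene with the largest fall. Each runs from 250 bases before to 50 bases after the start of the RefSeq gene model on TAIR10.1, read 5′ to 3′ on the coding strand. Capitals mark matches to any of 5 short motifs searched on both strands: the evening element AAATATCT, the CCA1-binding site AAAAATCT, the G-box CACGTG, the I-box core GATAAG and the TATCCA element.
BAM3, chr4:9607353-9607652, minus strand: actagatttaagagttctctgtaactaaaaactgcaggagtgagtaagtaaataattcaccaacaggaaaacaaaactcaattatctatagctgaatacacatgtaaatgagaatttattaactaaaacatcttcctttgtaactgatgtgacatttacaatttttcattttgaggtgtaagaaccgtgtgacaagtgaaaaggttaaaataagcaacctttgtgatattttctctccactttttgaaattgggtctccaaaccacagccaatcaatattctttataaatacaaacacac
GBSS1, chr1:11923817-11924116, minus strand: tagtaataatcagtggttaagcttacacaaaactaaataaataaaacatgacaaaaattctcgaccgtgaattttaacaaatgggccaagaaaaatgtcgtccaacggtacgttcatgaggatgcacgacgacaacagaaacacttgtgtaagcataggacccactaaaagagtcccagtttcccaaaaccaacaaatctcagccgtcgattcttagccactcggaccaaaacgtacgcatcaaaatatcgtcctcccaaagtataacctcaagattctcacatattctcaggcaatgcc
SEX1, chr1:3590879-3591178, minus strand: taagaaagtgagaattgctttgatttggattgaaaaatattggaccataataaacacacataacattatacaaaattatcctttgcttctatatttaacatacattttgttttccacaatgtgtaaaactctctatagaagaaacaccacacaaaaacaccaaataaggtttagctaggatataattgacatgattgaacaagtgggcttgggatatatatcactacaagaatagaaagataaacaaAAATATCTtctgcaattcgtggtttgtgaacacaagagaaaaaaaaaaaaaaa
DPE2, chr2:17044682-17044981, plus strand: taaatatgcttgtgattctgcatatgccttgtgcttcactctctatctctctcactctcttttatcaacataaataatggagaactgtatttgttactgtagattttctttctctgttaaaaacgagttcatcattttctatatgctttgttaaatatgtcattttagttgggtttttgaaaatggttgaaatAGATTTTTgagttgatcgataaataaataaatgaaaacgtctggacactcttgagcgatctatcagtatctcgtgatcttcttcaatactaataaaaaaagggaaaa
SEX1 held an evening element across its start, from base -3 to base 5, and DPE2 a CCA1-binding site in reverse complement from base -57 to base -50, with base 1 the first of the gene model. The windows of BAM3 and GBSS1 held none of the 5 motifs, and neither did those of BAM1 and APL3. Among the members not printed, ISA3 had an evening element in reverse complement from base -39 to base -32 and a G-box from base 43 to base 48. SS3 had a G-box from base -247 to base -242, and SS4 had 2 G-boxes and a TATCCA element. The evening element was found in the windows of 2 of the 9 genes and of 5.65% of 27443 protein-coding genes. The CCA1-binding site was found in 1 of the 9 and 7.88% of all, the G-box in 3 and 7.68%, the TATCCA element in 1 and 16.1%, and the I-box core in 0 and 14.6%. A match is a string of letters and not a shown binding site, and the window is short.

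Levels are given as CPM, reads per 1000000 of a library's total after TMM adjustment. On the synthesis side GBSS1 (AT1G32900, chromosome 1, 11920390 to 11923766, minus strand, 13 exons in RefSeq) encodes granule-bound starch synthase 1. It stood at 148 and 177 CPM at 6 dpg, against 47.7 and 55.3 CPM at 2 dpg. The ages were far apart, and the means were 163 ± 20.95 CPM at 6 dpg and 51.5 ± 5.41 CPM at 2 dpg (SD, n = 2 each), with a log2 fold change of 1.66 ± 0.14 (SE, edgeR adjusted p = 3.41e-05). These values rest on 3551 and 3466 reads at 6 dpg and 1164 and 1101 reads at 2 dpg.

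SS3 and SS4 encode soluble starch synthases, SS3 with a main part in elongating amylopectin chains and SS4 with a part in starting granules. SS3 (AT1G11720, chromosome 1, 3951553 to 3957044, plus strand) had 70.7 and 70.9 CPM at 6 dpg and 50.0 and 66.6 CPM at 2 dpg. The 2 dpg libraries were spread more widely than the distance between the ages, and the log2 fold change of 0.28 ± 0.15 did not pass the test (SE, edgeR adjusted p = 0.133). Without 2 dpg replicate 2 it was 0.49, and without 2 dpg replicate 1 it was 0.093. Without either of the 6 dpg libraries it was 0.29. With length-adjusted offsets it was -0.11 (edgeR adjusted p = 0.438). SS4 (AT4G18240, chromosome 4, 10082108 to 10087203, plus strand) had 17.3 and 19.2 CPM at 6 dpg and 17.7 and 21.5 CPM at 2 dpg. Its ages overlapped, at a log2 fold change of -0.10 ± 0.14 (SE, edgeR adjusted p = 0.564).

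APL3 (AT4G39210, chromosome 4, 18259609 to 18263417, plus strand) encodes a large, regulatory subunit of ADP-glucose pyrophosphorylase and is known as a sugar-inducible gene. It had 2.95 and 3.38 CPM at 6 dpg and 5.41 and 4.77 CPM at 2 dpg, the lowest FPKM of the 9 genes at both ages. Both 6 dpg libraries lay below both 2 dpg libraries, but the counts were small, at 71 and 66 reads at 6 dpg and 132 and 95 reads at 2 dpg. The log2 fold change was -0.69 ± 0.20 (SE, edgeR adjusted p = 0.0178). The adjusted p was 0.0757 with DESeq2, 0.0844 without 2 dpg replicate 1 and 0.106 without 6 dpg replicate 1. With libraries scaled on ribosomal protein genes it was 0.352.

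On the breakdown side SEX1 (AT1G10760, also named GWD1, chromosome 1, 3581034 to 3590928, minus strand, 33 to 35 exons) encodes the dikinase that phosphorylates starch. Its levels were 48.6 and 62.9 CPM at 6 dpg, against 30.6 and 37.2 CPM at 2 dpg. The ages did not overlap, at means of 55.7 ± 10.1 CPM at 6 dpg and 33.9 ± 4.63 CPM at 2 dpg (SD, n = 2 each) and a log2 fold change of 0.72 ± 0.16 (SE, edgeR adjusted p = 0.00466). With 4670 bp SEX1 is the longest of the 9, and fold changes followed gene length in these libraries: the 367 tested genes of 4000 to 6000 bp had a median log2 fold change of 0.53. With offsets that remove this trend SEX1 had a log2 fold change of 0.21 (edgeR adjusted p = 0.194).

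BAM1 and BAM3 are the major plastid beta-amylases, BAM3 acting mainly in mesophyll at night and BAM1 in guard cells by day and under stress. BAM3 (AT4G17090, chromosome 4, 9604962 to 9607334, minus strand, 4 exons) had 8205 and 8008 reads at 6 dpg and 796 and 855 reads at 2 dpg. In CPM the means were 376 ± 48.4 at 6 dpg and 37.8 ± 7.33 at 2 dpg (SD, n = 2 each). The difference was many times the spread within an age, with a log2 fold change of 3.31 ± 0.17 (SE, edgeR adjusted p = 3.96e-06), which ranked 132 from the top among the 16160 tested genes. BAM1 (AT3G23920, chromosome 3, 8641569 to 8644449, plus strand, 4 exons) had 129 and 144 CPM at 6 dpg and 116 and 119 CPM at 2 dpg. Its ages did not overlap, yet the log2 fold change of 0.21 ± 0.12 did not pass the test (SE, edgeR adjusted p = 0.152). Between BAM3 and BAM1 the FPKM ratio was 2.78 and 2.99 in the 6 dpg libraries and 0.293 and 0.378 in the 2 dpg libraries.

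ISA3 and DPE2 act on the products of beta-amylase. ISA3 (AT4G09020, chromosome 4, 5784074 to 5789002, plus strand, 24 exons) encodes the isoamylase that debranches short chains during breakdown. It had 3.79 and 5.22 CPM at 6 dpg and 7.21 and 8.24 CPM at 2 dpg, with no overlap, and a log2 fold change of -0.78 ± 0.21 (SE, edgeR adjusted p = 0.0104). Without 6 dpg replicate 1 the log2 fold change was -0.56 (edgeR adjusted p = 0.0889), and with ribosomal protein scaling -0.50 (edgeR adjusted p = 0.177). DPE2 (AT2G40840, chromosome 2, 17044963 to 17050947, plus strand, 23 exons) encodes the cytosolic glucanotransferase that splits maltose. It stood at 20.2 and 22.0 CPM at 6 dpg, against 40.4 CPM in both 2 dpg libraries. The replicates of each age were close, and the log2 fold change was -0.94 ± 0.12 (SE, edgeR adjusted p = 0.000237).

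Compared per length, with the authors' FPKM, the order of the 9 genes differed between the ages at its top. At 6 dpg BAM3 led with 196 ± 26.5 FPKM, followed by GBSS1 at 78.7 ± 10.6 and BAM1 at 67.8 ± 5.64 FPKM (SD, n = 2). At 2 dpg BAM1 led with 52.1 ± 2.72 FPKM, followed by GBSS1 at 22.2 ± 3.12, BAM3 at 17.6 ± 4.02 and SS3 at 15.4 ± 3.64 FPKM (SD, n = 2). At 6 dpg GBSS1 and BAM1 were neighbours in that order whose library values overlapped (71.2 and 86.3 FPKM for GBSS1, 63.9 and 71.8 FPKM for BAM1). At 2 dpg the library values of GBSS1 and BAM3 also overlapped, as did those of BAM3 and SS3. SS3, the dikinase gene SEX1 and DPE2 lay between, at 21.1 ± 0.173, 12.7 ± 2.38 and 6.86 ± 0.463 FPKM at 6 dpg. At 2 dpg SEX1 had 6.03 and 7.70 FPKM and DPE2 11.4 and 12.0 FPKM in the 2 libraries, so their order was the other way round, and SEX1 overlapped SS4 there. The FPKM ratio of SEX1 to DPE2 was 1.68 and 2.00 at 6 dpg and 0.530 and 0.644 at 2 dpg. The lower end was alike at both ages, with SS4, ISA3 and APL3 in that order. SS4 averaged 5.71 ± 0.452 FPKM at 6 dpg and 5.45 ± 0.934 FPKM at 2 dpg, ISA3 1.93 ± 0.445 FPKM at 6 dpg and 2.94 ± 0.382 FPKM at 2 dpg, and APL3 1.72 ± 0.173 FPKM at 6 dpg and 2.45 ± 0.128 FPKM at 2 dpg (SD, n = 2 each). At 6 dpg ISA3 and APL3 overlapped.

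Within their enzyme families the share of each member in the summed FPKM does not depend on how libraries are scaled against each other. Of the FPKM of 6 beta-amylase genes (BAM1, BAM2, BAM3, BAM5, BAM6 and BAM7), BAM3 made up 68.0 and 69.9% at 6 dpg, against 17.5 and 21.4% at 2 dpg. BAM1 made up 24.5 and 23.4% at 6 dpg and 59.6 and 56.7% at 2 dpg. The summed FPKM of the family was 261 and 307 at 6 dpg and 84.2 and 95.2 at 2 dpg. Among 4 starch synthases GBSS1 held 60.02 and 62.5% at 6 dpg and 34.7 and 34.04% at 2 dpg. The share of SS3 was 17.6 and 15.3% at 6 dpg and 22.3 and 25.1% at 2 dpg, and that of SS4 was 4.54 and 4.37% at 6 dpg, against 8.31 and 8.52% at 2 dpg. Among 4 debranching enzymes the share of ISA3 was 8.49 and 10.8% at 6 dpg and 7.56 and 8.30% at 2 dpg, with non-overlapping libraries but a smaller family sum at 6 dpg. That sum was 19.0 and 20.7 FPKM at 6 dpg and 35.3 and 38.6 FPKM at 2 dpg. Among 3 large subunits of ADP-glucose pyrophosphorylase APL3 held 28.8 and 31.9% at 6 dpg and 40.5 and 40.1% at 2 dpg. SEX1 held 90.7 and 93.7% of the FPKM of SEX1 and GWD2 at 6 dpg and 96.5 and 94.7% at 2 dpg, so that SEX1 made up nearly the whole sum at both ages. Genes on the later part of chromosome 5 were not analysed here. Among them are the synthase gene SS1, the large subunit gene APL1, the dikinase gene PWD and the beta-amylase genes BAM4, BAM8 and BAM9. The shares are therefore those among the genes analysed and not among whole families.

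**Figure D2:**
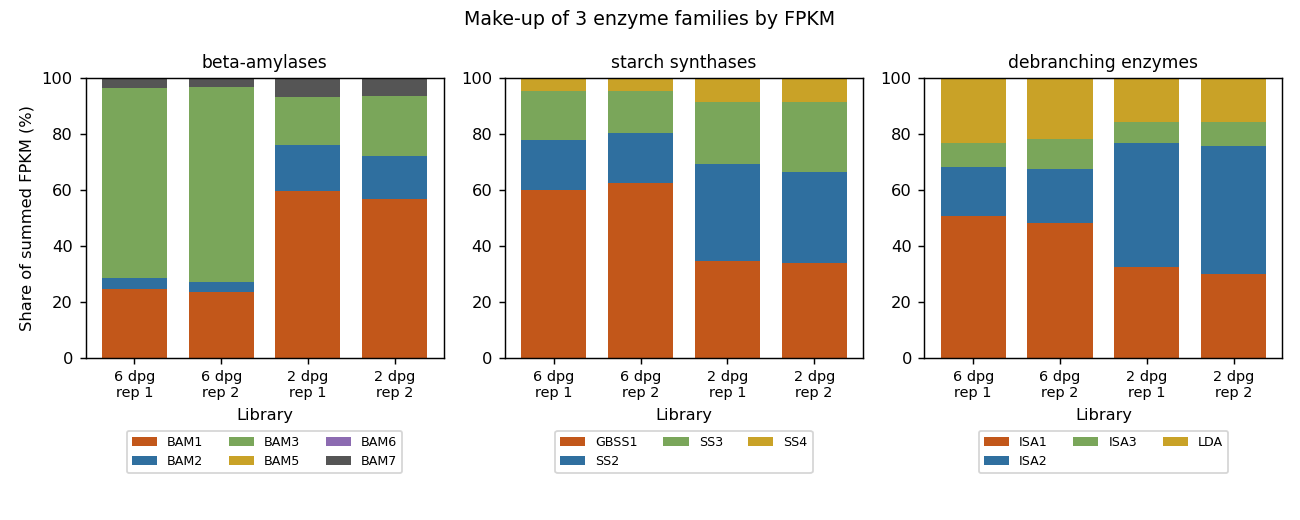
Share (%) of each gene in the summed FPKM of the analysed genes of its enzyme family, per library, for beta-amylases, starch synthases and debranching enzymes. BAM3 makes up 68.0 and 69.9% of beta-amylase FPKM in the 6 dpg libraries and 17.5 and 21.4% in the 2 dpg libraries, and GBSS1 60.02 and 62.5% of starch synthase FPKM at 6 dpg against 34.7 and 34.04% at 2 dpg.

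The other genes of the pathway were taken from a list of 46 loci, of which 32 were in the table and 28 were tested. Of these 7 rose, 10 fell and 11 did not pass the test, at a median log2 fold change of -0.13, and the shares of all tested genes that rose and fell were 28.3% and 28.4%. Of 13 other tested synthesis genes 2 rose and 4 fell. ESV1 (AT1G42430), whose protein binds starch and protects granules from early breakdown, had 602 and 480 CPM at 6 dpg, against 25.6 and 36.3 CPM at 2 dpg. This was a 17.5-fold rise with a log2 fold change of 4.13 ± 0.20 (SE, edgeR adjusted p = 3.19e-06), above that of BAM3. Its related gene LESV (AT3G55760) had 4.04 and 4.76 CPM at 6 dpg and 4.63 and 5.23 CPM at 2 dpg, which overlap (edgeR adjusted p = 0.499). BE1 (AT3G20440), a gene of the branching enzyme family, rose by log2 0.88. ISA2 (AT1G03310), the noncatalytic partner of ISA1 in the isoamylase that trims new amylopectin, had 9.28 and 11.1 CPM at 6 dpg and 50.1 and 54.1 CPM at 2 dpg. Its log2 fold change was -2.36 ± 0.14 (SE, edgeR adjusted p = 7.47e-06). ISA1 and BE3, a branching enzyme gene, fell by 0.40 and 0.33, and the FPKM ratio of ISA2 to ISA1 was 0.347 and 0.405 at 6 dpg and 1.37 and 1.54 at 2 dpg. The call for ISA1 was lost without either 6 dpg library (edgeR adjusted p = 0.133 and 0.0997), and that for BE3 with DESeq2, among other settings (adjusted p = 0.0987).

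Of 11 other tested breakdown genes 3 rose and 4 fell, where 28.3% and 28.4% of all tested genes did so. GWD2 (AT4G24450), a dikinase gene related to SEX1, had 4.41 and 3.79 CPM at 6 dpg and 0.983 and 1.86 CPM at 2 dpg, at a log2 fold change of 1.55 ± 0.31 (SE, edgeR adjusted p = 0.0027). The alpha-amylase gene AMY2 and BAM7, which encodes a nuclear protein with a beta-amylase domain, rose by log2 0.61 and 0.51. AMY2 lost its call without 6 dpg replicate 2 (edgeR adjusted p = 0.0767) and BAM7 with length-adjusted offsets (edgeR adjusted p = 0.113). LSF2 (AT3G10940), a glucan phosphatase gene, had 3.08 and 3.89 CPM at 6 dpg and 11.1 and 11.0 CPM at 2 dpg at a log2 fold change of -1.67 ± 0.18 (SE, edgeR adjusted p = 0.000112). PHS1 (AT3G29320), the plastid glucan phosphorylase gene, fell by 1.23 and BAM2 by 0.55. BAM2 lost its call without 6 dpg replicate 1 (edgeR adjusted p = 0.0516) and had a log2 fold change of -0.27 with ribosomal protein scaling (edgeR adjusted p = 0.391). SEX4, a glucan phosphatase gene, and LSF1, a gene related to it, had log2 fold changes of -0.63 and -0.05 (edgeR adjusted p = 0.0821 and 0.794). BAM5 had 3 reads in all, in 2 dpg replicate 2, and was not tested. Among the 4 tested genes of plastid transport and hexose phosphorylation, the ATP carrier genes NTT2 and NTT1 rose by log2 0.86 and 0.57. Without 6 dpg replicate 2 NTT1 had a log2 fold change of 0.37 (edgeR adjusted p = 0.147). HXK1, the hexokinase and glucose sensor gene, fell by 1.12. GPT2, the glucose 6-phosphate carrier gene, fell by 1.73, on 4 and 7 reads at 6 dpg and 21 and 17 reads at 2 dpg, and its call was lost with DESeq2 (adjusted p = 0.0946).

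**Figure D3:**
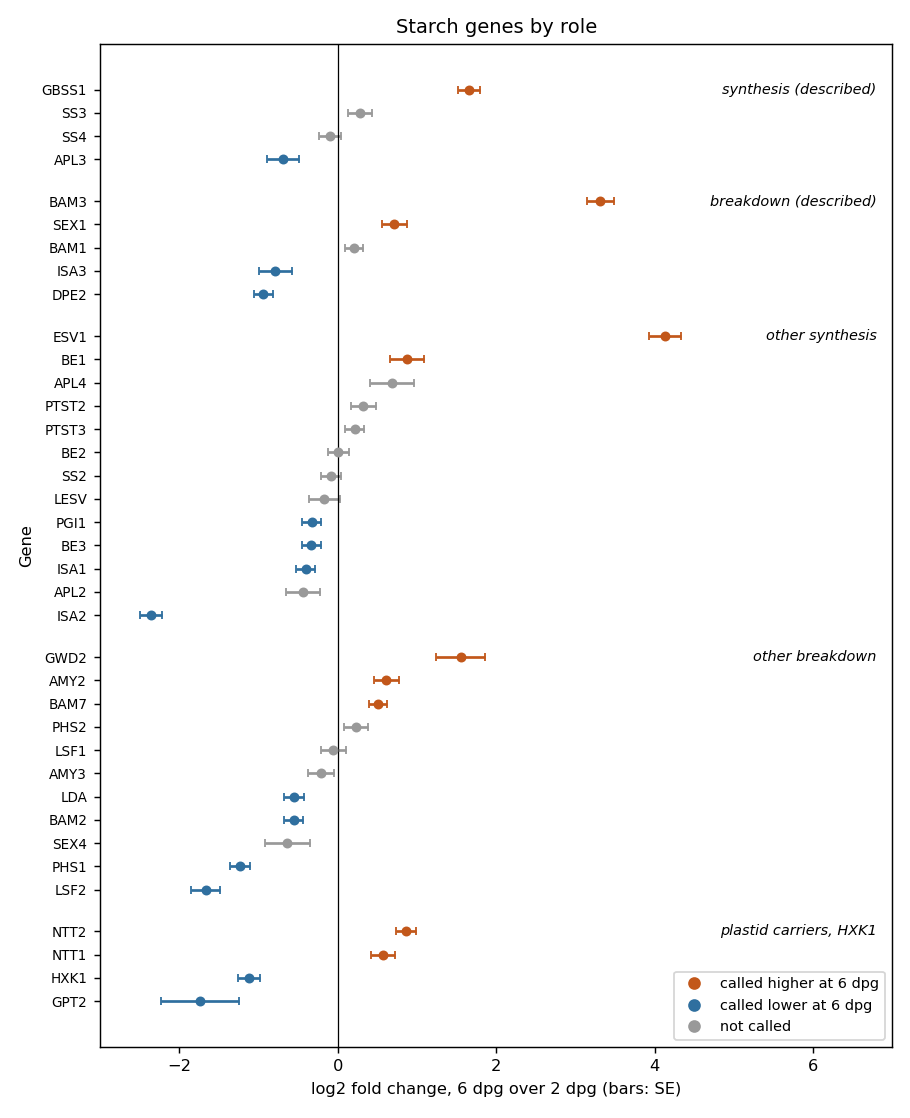
Log2 fold change (6 dpg over 2 dpg, points, with SE as bars) of the 9 described genes and 28 other tested starch genes, grouped by role and coloured by edgeR call. ESV1 at 4.13 and BAM3 at 3.31 lie at the right end and ISA2 at -2.36 at the left end.

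Several of the 9 genes have transcripts known to cycle over the day, and markers of time of day differed between the ages as well. All 6 tested morning genes of the clock rose, where 28.3% of all tested genes did so, at a median log2 fold change of 1.42. Summed levels of the 6 were 3236 to 3537 CPM at 6 dpg and 1179 to 1504 CPM at 2 dpg. CCA1, which encodes a morning MYB factor, had 646 and 596 CPM at 6 dpg, against 198 and 266 CPM at 2 dpg. Of 4 tested evening genes 2 fell and 2 did not pass the test, where 28.4% of all tested genes fell. Their summed levels were 51.8 to 54.4 CPM at 6 dpg and 64.4 to 71.9 CPM at 2 dpg. The ages and the hours of collection, which the labels do not give, cannot be told apart for genes with a daily rhythm.

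Genes known to rise in darkness and sugar shortage moved in 1 direction. While 28.3% of all tested genes were called higher at 6 dpg, all 6 tested genes of this list were, at a median log2 fold change of 2.24. Their summed level was 1318 to 1548 CPM at 6 dpg and 154 to 177 CPM at 2 dpg. ASN1, an asparagine synthetase gene, had 607 and 522 CPM at 6 dpg and 41.8 and 47.7 CPM at 2 dpg, and the log2 fold change of SEN1 was 3.79 ± 0.19 (SE, edgeR adjusted p = 3.54e-06). The part of sugar status in the values of the 9 genes was not tested.

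Tissue markers differed too. Of 12 tested chlorophyll-binding antenna genes 11 fell and none rose, where 28.4% and 28.3% of all tested genes did so. The antenna median was -1.08, with summed levels of 40415 to 40770 CPM at 6 dpg and 82665 to 87131 CPM at 2 dpg. Of 10 tested root genes 8 fell and 1 rose, at a median of -2.09, with summed levels of 203 to 236 CPM at 6 dpg and 362 to 408 CPM at 2 dpg. PHO1, the root gene that rose, supplied 118 and 97.7 CPM of the sums at 6 dpg and 70.3 and 76.7 CPM at 2 dpg. The 7 seed reserve genes were near 0, at 0.166 to 0.409 CPM in sum at 6 dpg and 1.31 to 6.38 CPM at 2 dpg. In the 6 dpg libraries BAM3, GBSS1 and SEX1 were higher, DPE2, ISA3 and APL3 were lower, and the antenna and root sums were lower. The part of tissue proportions in the starch gene values was not tested.

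**Figure D4:**
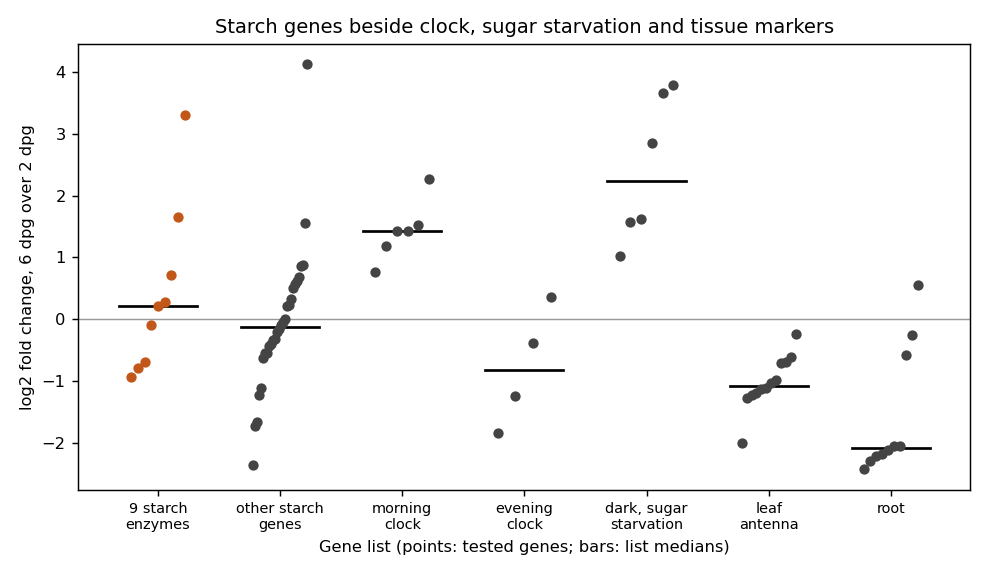
Log2 fold change (6 dpg over 2 dpg) of the tested genes of each list as points, with list medians as bars. The 9 starch enzymes spread on both sides of 0 with a median of 0.21, whereas morning clock genes have a median of 1.42, sugar starvation genes 2.24, antenna genes -1.08 and root genes -2.09.

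Between the replicates of an age the 9 genes did not scatter evenly. All 9 had a higher CPM in 6 dpg replicate 2 than in 6 dpg replicate 1, where 47.7% of all tested genes did so, at a median log2 ratio of 0.19 against -0.01 over all tested genes. At 2 dpg 7 of the 9 were higher in replicate 2, where 50.3% of all tested genes were. The distance between the 6 dpg replicates was small beside the age difference for BAM3, GBSS1 and DPE2.

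Tested genes of the whole table with the most similar profile were looked up by the Euclidean distance between log2 CPM centred over the 4 libraries. A small count was added before the logarithm, which shrinks the age difference of genes with few reads. Nearest to BAM3, the largest rise, were BARS1 (AT4G15370, baruol synthase, distance 0.101), the subtilase gene AT4G21650 (0.141) and CYP71A13 (AT2G30770, 0.217). Their log2 fold changes were 3.57, 3.48 and 4.04, at levels far below BAM3, such as 6.62 and 7.52 CPM at 6 dpg and 0.492 and 0.704 CPM at 2 dpg for BARS1. Nearest to DPE2, the largest fall, were AT1G27030 (0.0260), AT4G24780, listed as a probable pectate lyase gene (0.0332), and the GATA factor gene BME3 (AT3G54810, 0.0335). Over 4 libraries in 2 groups such a distance mostly reflects the size of the age difference, as shrunk by the added count. The log2 fold changes of the genes nearest to BAM3, given from the test, were all above its own 3.31.

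**Figure D5:**
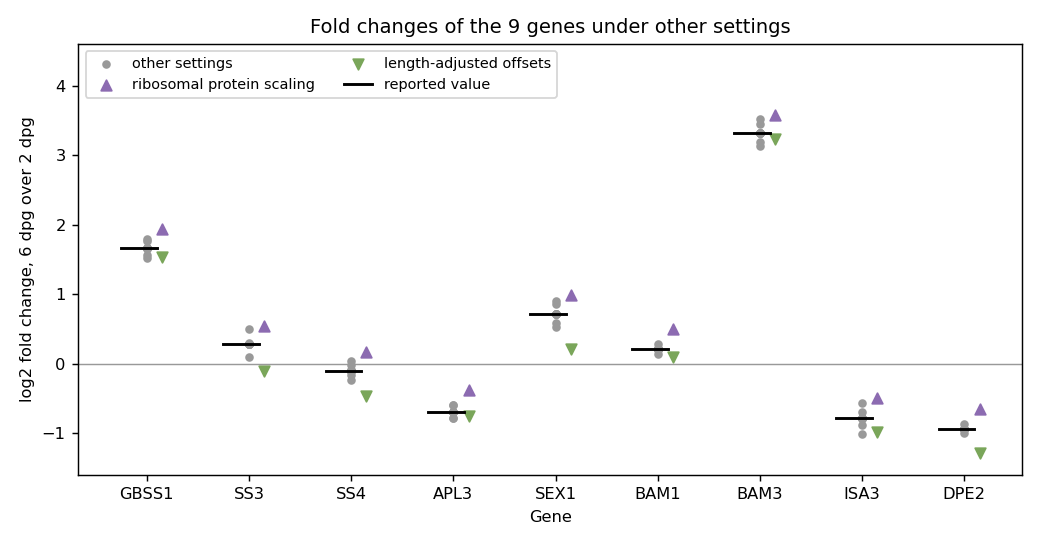
Log2 fold change (6 dpg over 2 dpg) of the 9 genes as reported (black bars), under ribosomal protein scaling and length-adjusted offsets (triangles) and under the other settings tried, leaving out each library included (grey points). BAM3 stays between 3.13 and 3.58 and GBSS1 between 1.53 and 1.93, while SS3 and SS4 lie on both sides of 0.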

How the data were processed

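For every gene the deposited table lists a read count and the authors' FPKM in each library. A p-value and its adjusted form for the age comparison are deposited beside them. The tools, without their roles, are DESeq 1.18.0, HTSeq 0.6.1, TopHat2 2.0.12, Bowtie2 2.2.3 and CASAVA 1.8, per the submitters' processing notes. TRIzol extraction preceded NEBNext Ultra library preparation, a kit that does not mark strand, per the labels' protocols. The genome build is not given in the sources used here. Gene coordinates are those of the table. Of 26407 loci matched to TAIR10.1, 57.0% shared at least 1 end exactly with RefSeq, and at least 36.4% did so in each of 98 windows of 1 Mb.

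Genes beyond position 3070933 of chromosome 5, among them 14 of the 46 other pathway loci, were not analysed here. Library totals were therefore recovered from count, FPKM and length (more than 200 reads, tolerance 0.01%): 22745278 and 18330153 at 6 dpg and 26570983 and 20587872 at 2 dpg. The rows held make up 79.9 to 81.0% of them. A count of 3 is 0.113 to 0.164 CPM of these totals, a floor that covers counting error only. FPKM levels are the authors' values.

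edgeR 4.0.16 in R 4.3.3 was fitted on all counts (TMM, filterByExpr with a minimum count of 10, age as the only term), leaving 16160 genes. SEs were derived from the fold change and its F. The biological coefficient of variation was 11.0%. Replicates differed beyond sampling noise (chi-square per degree of freedom 6.01 at 6 dpg and 16.5 at 2 dpg). Alternatives were DESeq2 1.42.0 and its size factors, other filters and totals, a replicate block, each library left out (the spread of the age left with 1 library is then taken from the other age), scaling on 168 ribosomal protein genes, and length-adjusted offsets. The members and lists were chosen with earlier results of these data known. All 9 genes are named. From each other list up to 3 called rises and 3 falls were named, other starch genes being given as values, and 3 nearest profiles for the largest rise and fall. Sequences are from RefSeq on TAIR10.1, read at the RefSeq starts, which lie 0 to 388 bases from those of the table. No gene of the 9 is overlapped by another over more than 0.548% of its span.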

Additional observations from a re-analysis of the deposited data

How the results depend on the processing

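BAM3, GBSS1 and DPE2 kept their direction and call under every alternative run, and SEX1 under all except length-adjusted offsets. Leaving out each library in turn gave log2 fold changes of 3.13 to 3.52 for BAM3, 1.53 to 1.79 for GBSS1, 0.52 to 0.90 for SEX1 and -0.99 to -0.87 for DPE2. Ribosomal protein scaling moved the median of all genes to 0.29 on the log2 scale, those genes having a median of -0.35 before it. Tested against 0 on that scale, 5 members were called higher and 1 lower, and 5 other starch genes lower. Of all genes, 7443 were then called in either direction. The 2 added rises, SS3 at 0.54 and BAM1 at 0.49, carry that shift. Under it SS4 had 0.17, SS2 0.19, LESV 0.12, LSF1 0.21 and AMY3 0.083, all with the opposite sign. Length-adjusted offsets turned SS3 to -0.11, BE2 to -0.22 and PHS2 to -0.080, and SS4 (-0.47), SS2 (-0.35) and AMY3 (-0.51) then passed the test (edgeR adjusted p = 0.0077, 0.0241 and 0.0268). With them 2 members were called higher and 4 lower, and 6 other starch genes higher and 12 lower. Of all genes, 9142 were called in either direction with these offsets. Counts without single libraries ranged from 6951 to 9497 for all genes, against 9153, from 3 to 4 for members higher, from 1 to 3 for members lower, from 5 to 9 for other starch genes higher and from 5 to 9 for other starch genes lower. The lowest counts of members and other genes lower came without 6 dpg replicate 1. In the same runs the log2 fold change ranged from -0.23 to 0.034 for SS4, from -0.19 to 0.012 for SS2, from -0.13 to 0.16 for BE2 and from -0.23 to 0.13 for LSF1. The cause of these changes was not tested. With the replicate number as a block 9099 genes were called, with 3 members higher and 3 lower as without it, and 8 other starch genes higher and 8 lower. Deviations of same-numbered libraries correlated at -0.01, so the numbers are not shown to pair the libraries. Of the called starch genes named here, BE3 and GPT2 lost the call in 3 of the 4 runs without a library, APL3 and ISA1 in 2, and ISA3, AMY2, BAM2 and NTT1 in 1.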
